A study of Mus musculus with 15 samples.

Results

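The comparison described here sets 2 ways of inhibiting mTORC1 side by side, one aimed at the nucleus and one reaching the whole cell, and asks of every gene whether they changed its RNA by the same amount. The cells were NIH3T3, a mouse fibroblast line of embryonic origin that is widely used for growth factor signalling. Per the series design, stable lines expressed, under doxycycline, histone H2A fused to mCherry, a red fluorescent protein that serves as the control, or H2A fused to TerminaTOR, an inhibitor of mTORC1 that is encoded by the transgene and kept in the nucleus by the histone. All cells were starved, and all groups used here then received the growth factor PDGF. The members were chosen by sample title and are 12 of the 15 libraries of the series, in 4 groups of 3. They are H2A-mCherry cells with PDGF, H2A-mCherry cells with rapamycin and PDGF, H2A-mCherry cells with cycloheximide and PDGF, and H2A-TerminaTOR cells with cycloheximide and PDGF. The TerminaTOR effect is the log2 change from the mCherry to the TerminaTOR cells, both under cycloheximide and PDGF. The rapamycin effect is the log2 change from PDGF to rapamycin and PDGF, both in mCherry cells. The difference is the TerminaTOR effect minus the rapamycin effect, so a positive value means that a gene lay higher, relative to its own control, with TerminaTOR than with rapamycin.

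mTORC1 is a kinase complex that joins growth factor and amino acid signals and promotes the making of protein, lipid and nucleotides. Rapamycin binds the protein FKBP12 and with it blocks mTORC1 wherever the complex is reached. Part of mTORC1 is found in the nucleus, and a histone-bound inhibitor addresses that part. Cycloheximide stops translation at the ribosome, so RNA that changes after it is added does so with little new protein. It is also known to raise short-lived RNAs by itself. The TerminaTOR effect compares 2 lines that both received it, so RNA that already differed between the lines before cycloheximide is part of that effect. The series has no TerminaTOR cells without cycloheximide. The 2 effects therefore differ in the agent, in the place of inhibition, in the cell line and in the presence of cycloheximide, and the parts these have in a difference cannot be told apart. Doses, times and whether each line is 1 clone could not be read from the labels, and TerminaTOR's own RNA was not analysed here.

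Library totals of counted reads ran from 3466202 to 6777780 over the 12 libraries. The first principal component (56.2% of the variance of the 1000 most variable genes, over all 15 libraries) parted the 6 libraries with cycloheximide from the others, and the TerminaTOR libraries lay beside their cycloheximide controls. Mitochondrial transcripts, a coarse sign of RNA quality, took 8.69% to 9.30% of counts with PDGF, 9.85% to 11.0% with rapamycin, 6.28% to 6.64% in the cycloheximide controls and 6.32% to 6.63% in TerminaTOR cells. Of 12 fibroblast markers all had reads, and of 12 macrophage markers *Adgre1*, *Tyrobp* and *Itgam* had none in any of the 15 libraries. Nothing in the labels ties the 3 libraries of a group to separate cultures, so the p-values measure only the spread among these samples, and that spread may be technical. As in any bulk sample, fewer cells of a type and less RNA per cell cannot be told apart. Levels below are normalized CPM (read counts scaled to a common library total) of counts made per transcript and summed per gene, and such counting may leave out reads that several transcripts share, so they compare groups for a gene and not genes with each other.

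Rapamycin changed more genes than TerminaTOR did, and for many genes the 2 effects differed. The difference was called for 2548 of 10603 genes tested, 24.0% of them, at a Benjamini-Hochberg adjusted p under 0.05 (edgeR, quasi-likelihood F test). It was positive for 1320 (12.4%) and negative for 1228 (11.6%), and at least 2-fold for 1125. Scaling by library size alone, which moved the median difference of all genes from -0.015 to 0.144, gave 1855 positive and 867 negative calls, so the near-equal split of directions rests on the scaling. Rapamycin changed 3430 genes, 32.3%, with 1724 higher (16.3%) and 1706 lower (16.1%), and 1169 of them by at least 2-fold. TerminaTOR changed 522 genes, 4.92%, with 249 higher (2.35%) and 273 lower (2.57%), and 50 of them by at least 2-fold. With library-size scaling rapamycin gave 1260 higher and 2265 lower calls, and TerminaTOR 321 and 210. The number of TerminaTOR calls depended on single libraries. It was 340 without replicate 1 and 320 without replicate 3 of the cycloheximide controls, and 308 and 319 without replicates 1 and 3 of the TerminaTOR group. The precision of the effects was alike, with a median SE over all genes of 0.27 on the log2 scale for TerminaTOR and 0.287 for rapamycin, while the SD of the log2 effects over all genes was 0.509 and 0.843.

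Across the 10603 genes the 2 effects, which share no library, had a Pearson r of -0.014 and a Spearman rho of -0.018, a description across genes, which are not independent replicates. Among the 3200 genes whose mean log2 CPM was 5 or more, the Pearson r was -0.02. The 2 log2 effects had the same sign in 49.5% of all genes, in 48.1% of the genes rapamycin changed and in 47.1% of the genes TerminaTOR changed. A call in both effects was made for 327 genes, which are 62.6% of the TerminaTOR calls and 9.53% of the rapamycin calls, beside the 32.3% of all genes that rapamycin changed. These 327 were split between 179 that moved in opposite directions and 148 that moved in the same direction. The 179 were 115 and 107 without replicates 1 and 3 of the cycloheximide controls and 106 and 109 without replicates 1 and 3 of the TerminaTOR group, and the 148 were 91 without replicate 3 of the cycloheximide controls and 93 to 94 without any 1 TerminaTOR library. In 246 of the 327 the absolute log2 effect was larger with rapamycin. In what follows, effects and differences are on the log2 scale, a value after ± is the SE unless it is marked as an SD, and each difference given with its SE was called unless the text says otherwise.

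Most genes with a called difference were genes that rapamycin changed. Of the 2548 genes, 1994 (78.3%) were called with rapamycin and not with TerminaTOR, 111 (4.36%) with TerminaTOR and not with rapamycin, and 203 (7.97%) with neither alone. In 179 (7.03%) the effects were called in opposite directions, and in 61 (2.39%) in the same direction but with unequal size. Of these 61, 38 were lower with both and fell further with rapamycin, 20 were higher with both and rose further with rapamycin, and in 3 the TerminaTOR effect was the larger.

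**Figure D1:**
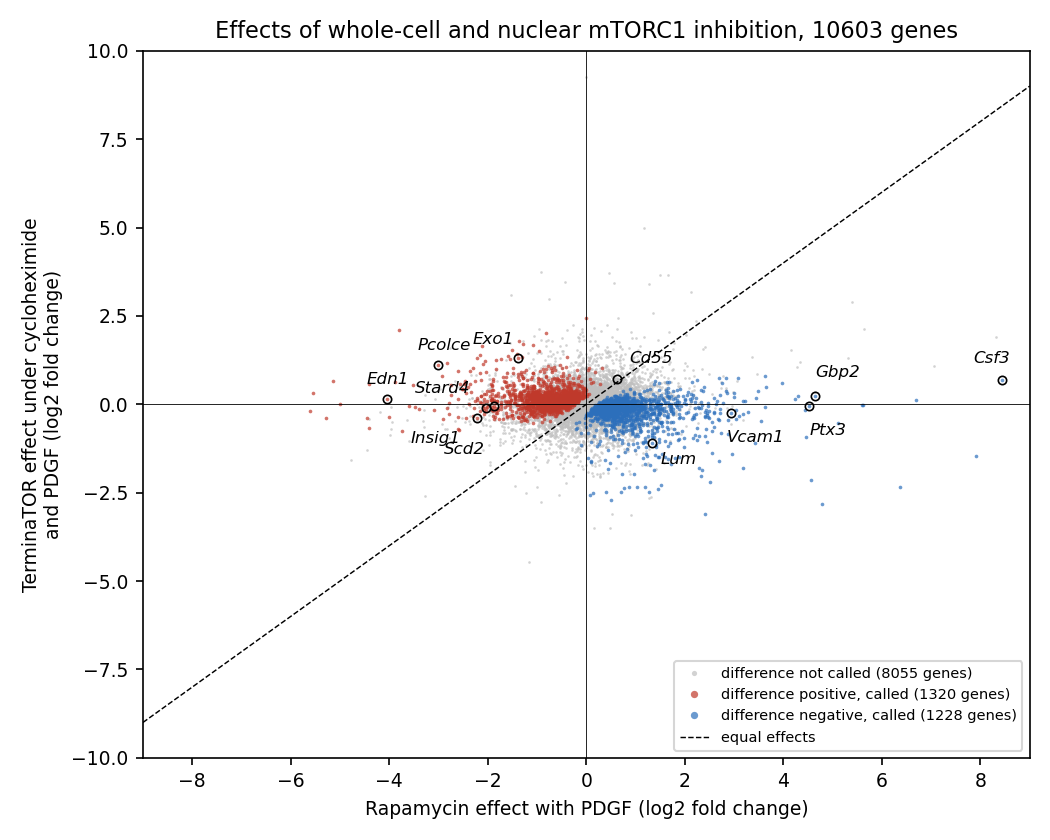
Rapamycin effect (x axis, log2 fold change) against TerminaTOR effect (y axis, log2 fold change) for the 10603 genes tested; red points are genes with a called positive difference, blue with a called negative one, grey the rest, and the dashed line marks equal effects. The cloud is wide along the rapamycin axis and narrow along the TerminaTOR axis, and the named genes *Csf3*, *Ptx3*, *Gbp2* and *Vcam1* lie far to the right near a TerminaTOR effect of 0.

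Cytokine and NF-kB target genes had large negative differences. These are genes for secreted signals, adhesion molecules and feedback inhibitors that the transcription factor NF-kB switches on in inflammation. Of 32 tested, 26 had a called negative difference and 1 a positive one, with a median of -2.44, beside 11.6% of all genes with a negative call and a median of -0.015 over all genes. With rapamycin 29 of the 32 rose and 1 fell (median 2.26), and with TerminaTOR 2 rose, 2 fell and 28 were not called (median -0.09). Of all genes 16.3% rose and 16.1% fell with rapamycin, and 2.35% rose and 2.57% fell with TerminaTOR. Macrophage markers, genes of a cell type rich in these RNAs, summed to 17.6 to 20.7 CPM with PDGF, 22.0 to 25.2 with rapamycin, 64.8 to 78.4 in the cycloheximide controls and 62.1 to 72.9 in TerminaTOR cells.

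The windows shown here carry, in capitals, a letter match to the kappa-B type motif (GGGA, any base, TT, any base, CC, or its complement on the other strand), to which NF-kB proteins bind, in promoters of members of the list. They are given because this list had the most negative median difference of all the lists, and *Il6* is included as a member whose difference was not called. The sequences run 5′ to 3′ on the gene's own strand and are RefSeq's for the build GRCm38.p6, cut so that no base after the start site follows the match. Both strands were searched, in promoters of 300 bases, of which 250 lie before and 50 after the start. The windows are chr3:66219852-66219896 on the plus strand for *Ptx3*, chr5:90891139-90891218 plus for *Cxcl1*, chr12:55492648-55492711 minus for *Nfkbia*, chr3:107760579-107760658 minus for *Csf1*, chr7:19822744-19822788 minus for *Bcl3* and chr5:30013035-30013113 plus for *Il6*.
Ptx3: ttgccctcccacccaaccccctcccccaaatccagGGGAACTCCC
Cxcl1: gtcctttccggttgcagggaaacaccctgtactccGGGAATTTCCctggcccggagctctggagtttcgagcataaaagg
Nfkbia: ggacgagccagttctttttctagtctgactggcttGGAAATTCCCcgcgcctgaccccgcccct
Csf1: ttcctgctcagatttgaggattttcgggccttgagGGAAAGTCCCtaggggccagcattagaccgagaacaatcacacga
Bcl3: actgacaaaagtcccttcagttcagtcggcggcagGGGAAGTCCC
Il6: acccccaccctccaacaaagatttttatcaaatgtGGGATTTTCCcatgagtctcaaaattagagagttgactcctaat
The match began 71 bases before RefSeq's start for *Cxcl1*, 29 for *Nfkbia*, 154 for *Csf1* and 44 for *Il6*, and just after that start for *Ptx3* and *Bcl3*. In the annotation used to sum the counts *Ptx3* starts later, at chr3:66219910, so its match lies before that start. Of 23 members of the list with a promoter in the table, 7 (30.4%) held such a match, against 1.42% of 6896 tested genes and 1.20% of all 32851 promoters. The seventh was *Nfkb2*, whose difference was not called. The AP-1 motif TGANTCA was found in 5 of the 23 (21.7%) and in 6.26% of the tested genes. The list was made of genes that NF-kB is known to switch on, so a share above that of all genes says nothing about the differences. A match is a description of letters and not a binding site.

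*Ptx3* (pentraxin 3, a secreted pattern recognition protein; ENSMUSG00000027832.5, chr3:66219910-66225805, GRCm38) was measured at 83.4, 76.5 and 78.3 CPM with PDGF, 1725, 1914 and 1844 with rapamycin, 52.7, 52.7 and 53.8 in the cycloheximide controls and 46.4, 58.8 and 50.03 in TerminaTOR cells. The rapamycin libraries were far above all others, the PDGF libraries lay above both cycloheximide groups, and the TerminaTOR and cycloheximide control libraries overlapped. Its level with rapamycin, 1828 ± 95.2 CPM (SD, n = 3), was 23.03-fold that with PDGF, and the TerminaTOR effect was -0.04 ± 0.09 (log2, SE). The difference was -4.57 ± 0.12 (edgeR adjusted p = 2.34e-43).

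*Vcam1*, an adhesion molecule for leukocytes (chr3:116109949-116129688), was at 239, 226 and 229.5 CPM with PDGF, 1535, 1891 and 1862 with rapamycin, 208, 195 and 196 in the cycloheximide controls and 165, 179 and 166 in TerminaTOR cells. The rapamycin libraries were above all others, and every TerminaTOR library lay below every cycloheximide control. The rapamycin effect was 2.93 and the TerminaTOR effect -0.23, a small fall that was also called, and the difference was -3.16 ± 0.10 (edgeR adjusted p = 4.23e-40). *Nfkbia*, which encodes the inhibitor of NF-kB that NF-kB itself induces, was at 35.3, 38.5 and 30.4 CPM with PDGF, 213, 183 and 225 with rapamycin, 164, 185 and 175 in the cycloheximide controls and 142, 158 and 149 in TerminaTOR cells. Its cycloheximide controls stood well above the PDGF libraries and near the rapamycin libraries, so this gene was high in 3 of the 4 groups. The difference was -2.81 ± 0.14 (edgeR adjusted p = 8.41e-28).

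*Csf3*, the granulocyte growth factor G-CSF, was at 1.38, 0.258 and 0.414 CPM with PDGF, 232, 229.8 and 246 with rapamycin, 0.827, 1.26 and 0.960 in the cycloheximide controls and 1.09, 1.38 and 3.05 in TerminaTOR cells. It was close to absent outside the rapamycin libraries, with 8, 14 and 24 reads in the PDGF, cycloheximide control and TerminaTOR groups against 2615 with rapamycin, so the size of its difference, -7.75 ± 0.78 (edgeR adjusted p = 4.38e-13), rests on few reads. *Icam1*, another adhesion molecule, had a difference of -6.57 on similarly few reads (5 with PDGF), and the cytokine gene *Lif* one of -4.05, which was -3.45 without replicate 3 of the cycloheximide controls and -4.68 on the most-read transcript alone. Without replicate 1 of the PDGF group the *Csf3* difference was -8.61, and without replicate 1 of the cycloheximide controls that of *Icam1* was -5.83.

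Complement *C3* (-4.58 ± 0.28), the chemokine genes *Ccl2* (-3.69 ± 0.59) and *Cxcl1* (-3.09 ± 0.34), the ubiquitin-editing NF-kB inhibitor *Tnfaip3* (-3.43 ± 0.38) and the NF-kB cofactor *Bcl3* (-2.03 ± 0.39) were all called negative. In each of the 5 the rapamycin effect was called and the TerminaTOR effect was not. The means with PDGF and in the cycloheximide controls were 3.23 and 18.1 CPM for *Tnfaip3*, 1.21 and 3.90 for *Ccl2* and 5.68 and 12.6 for *C3*. In these genes the 2 effects thus start from different levels. *Csf1*, the macrophage growth factor, went in opposite directions: it rose with rapamycin (1.77) and fell with TerminaTOR (-0.71), from 15.3, 11.6 and 12.9 CPM to 7.18, 8.06 and 9.76 CPM, with a difference of -2.48, or -3.17 on its most-read transcript. The prostaglandin synthase gene *Ptgs2* was at 11717 ± 319.8 CPM (SD, n = 3) with PDGF and 32972 ± 1273 with rapamycin, and at 14881 ± 838 and 13802 ± 978 in the cycloheximide controls and TerminaTOR cells, for a difference of -1.60 ± 0.08. The single positive call of the list was *Cx3cl1*, a membrane-bound chemokine (1.39 ± 0.36, edgeR adjusted p = 0.00210). *Il6* was at 8.81, 8.01 and 7.46 CPM with PDGF, 6.41, 5.23 and 6.65 with rapamycin, 0.620, 1.26 and 1.34 in the cycloheximide controls and 1.72, 1.97 and 1.83 in TerminaTOR cells, low in every group. Its difference of 1.16 ± 0.68 was not called (edgeR adjusted p = 0.235).

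**Figure D2:**
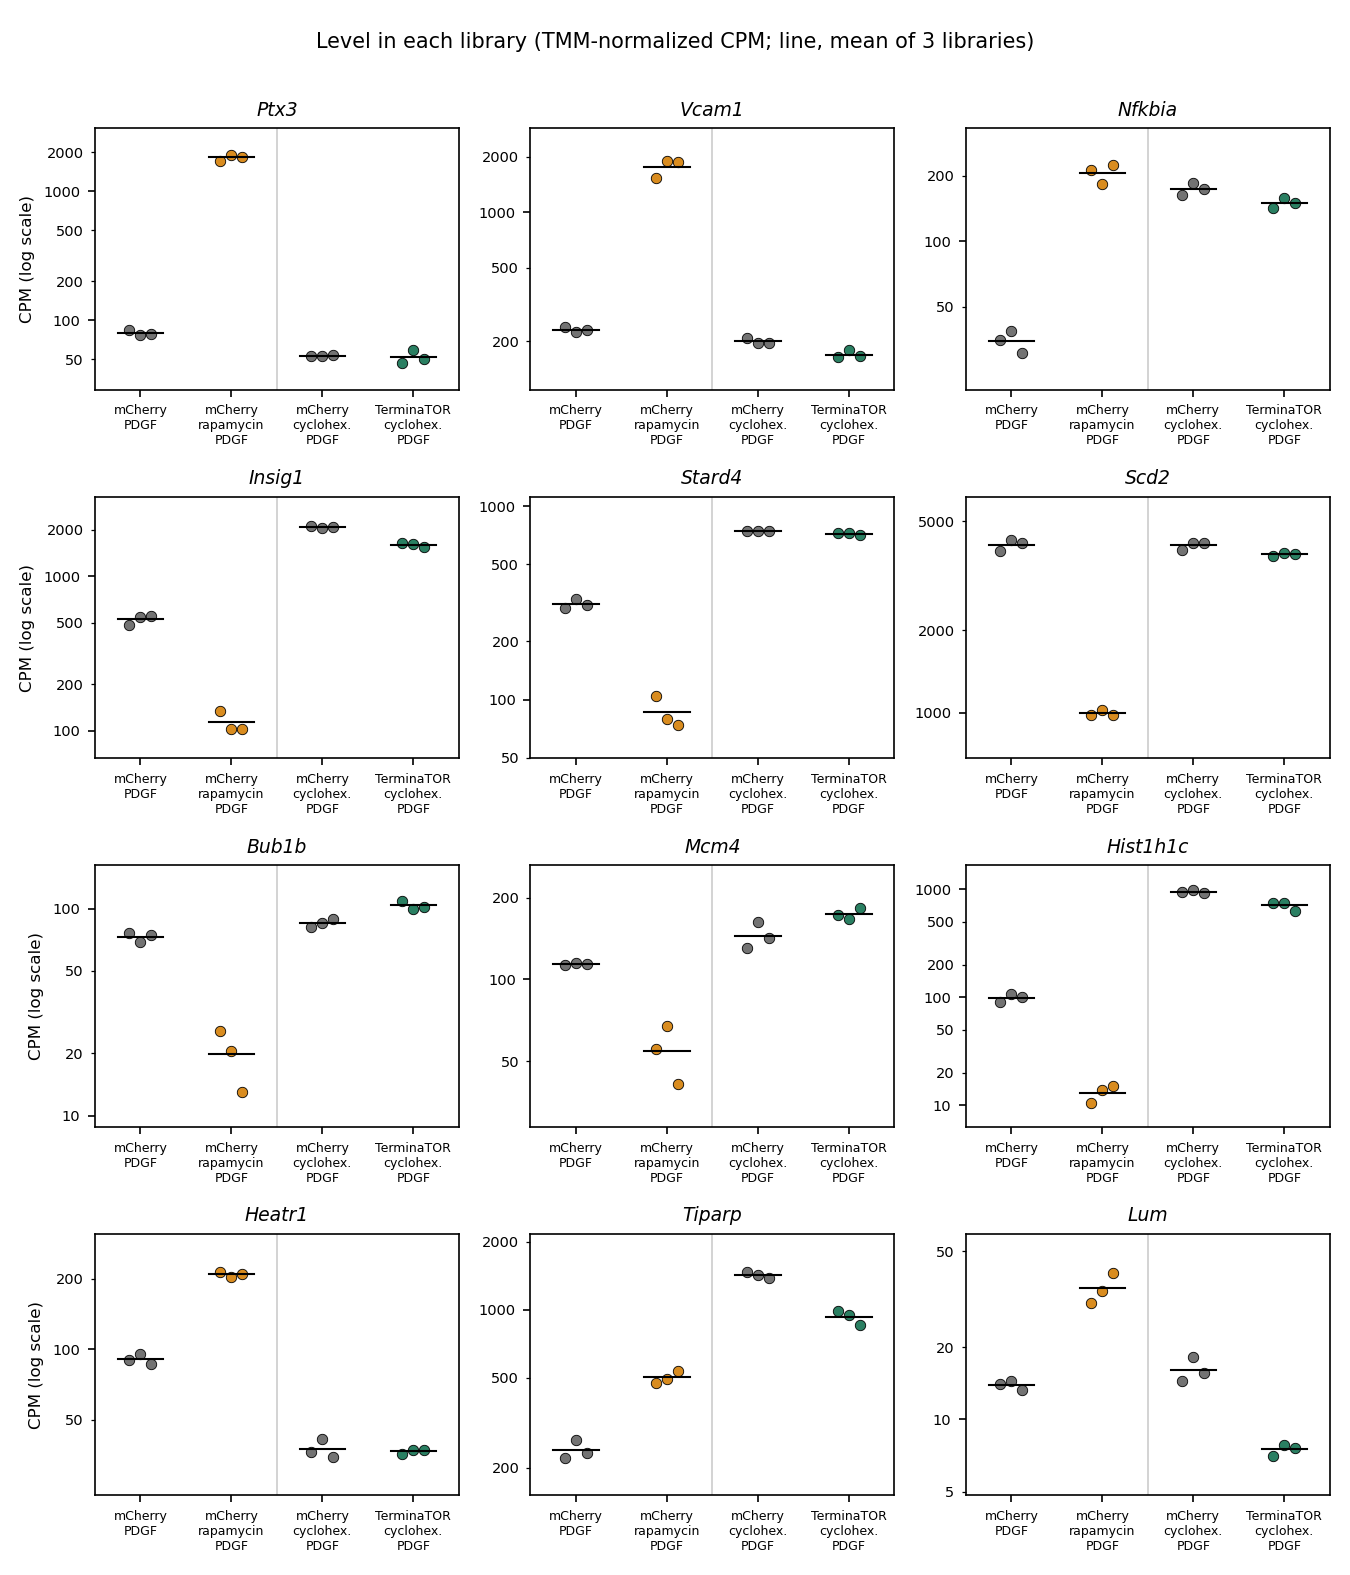
Level of 12 genes in each of the 12 libraries (y axis, TMM-normalized CPM on a log scale; x axis, group; points are libraries, the bar is the mean of 3, and a grey line parts the 2 pairs of groups). *Ptx3* and *Vcam1* are high with rapamycin only, *Insig1*, *Stard4*, *Scd2*, *Bub1b*, *Mcm4* and *Hist1h1c* are lowest with rapamycin, and *Tiparp* and *Lum* move up with rapamycin and down with TerminaTOR.

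Interferon response genes went both ways. They encode antiviral effectors that type I and type II interferons induce. Of 9 tested, 3 had a called positive and 4 a called negative difference, beside 12.4% and 11.6% of all genes. *Ifit1*, which binds foreign RNA, was at 36.9, 40.6 and 30.03 CPM with PDGF, 6.13, 9.23 and 4.51 with rapamycin, 151, 188 and 165 in the cycloheximide controls and 247, 282 and 234 in TerminaTOR cells. The rapamycin libraries were the lowest and the TerminaTOR libraries the highest, with no overlap in either pair. Its effects were 0.60 with TerminaTOR and -2.46 with rapamycin, both called, and the difference was 3.06 ± 0.21 (edgeR adjusted p = 4.05e-19). *Isg15*, a ubiquitin-like protein, behaved alike, with effects of 0.78 and -1.70 and a difference of 2.48 ± 0.30. The guanylate-binding proteins *Gbp2* and *Gbp7* lay on the other side. *Gbp2* (chr3:142620602-142638008) was at 29.7, 31.01 and 33.3 CPM with PDGF, 666, 867 and 826 with rapamycin, 18.6, 18.9 and 19.6 in the cycloheximide controls and 22.8, 22.8 and 21.4 in TerminaTOR cells, and its difference was -4.41 ± 0.16. *Gbp7* had one of -3.44 ± 0.69.

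Lipid synthesis genes had positive differences, with falls under rapamycin. Cholesterol synthesis is driven by SREBP transcription factors, whose processing mTORC1 is known to promote. Of 19 genes of cholesterol synthesis and sterol control tested, 12 had a called positive and none a called negative difference (median 0.91), beside 12.4% positive calls among all genes. Rapamycin lowered 14 and raised none (median -1.11), and TerminaTOR raised 1, lowered 3 and left 15 not called (median -0.05). Over all genes rapamycin lowered 16.1%, and TerminaTOR raised 2.35% and lowered 2.57%. The 3 genes lowered by TerminaTOR were also lowered by rapamycin. Of 13 genes of fatty acid synthesis and desaturation, 8 had a called positive and none a negative difference (median 0.93). Rapamycin lowered 7 and raised 1. TerminaTOR changed none at the threshold, beside 4.92% of all genes.

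*Insig1*, the membrane protein that holds SREBP back when sterols are plentiful (ENSMUSG00000045294.11, chr5:28071363-28078662), was at 484, 545 and 555 CPM with PDGF, 135, 103 and 103 with rapamycin, 2096, 2056 and 2068 in the cycloheximide controls and 1639, 1607 and 1537 in TerminaTOR cells. Each treated group lay wholly below its control, and the cycloheximide controls were several times above the PDGF libraries. Both effects were called, -0.38 ± 0.06 with TerminaTOR and -2.21 ± 0.07 with rapamycin, and they differed by 1.83 ± 0.10 (edgeR adjusted p = 3.57e-22).

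Other members were called lower with rapamycin and not called with TerminaTOR. *Stard4*, a carrier of cholesterol inside the cell, was at 299, 333 and 307 CPM with PDGF, 104, 79.4 and 74.3 with rapamycin, 746, 746 and 747 in the cycloheximide controls and 729.7, 729.9 and 706 in TerminaTOR cells. The rapamycin libraries were the lowest, and the TerminaTOR libraries lay just below their controls, by an effect that was not called and whose 95% interval ran from -0.19 to 0.10 (log2). The difference was 1.82 ± 0.11. *Scd2*, a stearoyl-CoA desaturase (chr19:44293674-44306864), was at 3890.3, 4268 and 4155 CPM with PDGF, 976, 1022 and 983 with rapamycin, 3927, 4173 and 4164 in the cycloheximide controls and 3741, 3836 and 3794 in TerminaTOR cells. It was 4.13-fold lower with rapamycin, and every TerminaTOR library lay below every cycloheximide control. The TerminaTOR effect was -0.11, not called, with an interval of -0.21 to -0.01. The difference was 1.94 ± 0.07 (edgeR adjusted p = 2.68e-34). The farnesyl diphosphate synthase *Fdps* (2.38 ± 0.43), the sterol demethylase *Cyp51* (0.87 ± 0.08), the elongase *Elovl6* (1.24 ± 0.13) and the desaturase *Fads2* (0.93 ± 0.09) followed the same pattern.

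*Hmgcs1* and *Srebf1*, textbook SREBP targets, were low in these counts (16 and 21 reads over the 3 PDGF libraries), and neither difference was called (edgeR adjusted p = 0.747 and 0.374). The difference of *Srebf1*, 1.32, was 0.70 without replicate 3 of the PDGF group and 2.196 without replicate 2 of the rapamycin group. *Msmo1*, a methyl sterol oxidase, fell with both inhibitors, -0.70 with TerminaTOR and -1.04 with rapamycin, with a difference of 0.35 and an interval of -0.30 to 1.00, or 1.05 and not called on its most-read transcript. The E-box CACGTG stood in the promoters of 4 of 12 sterol genes with an entry (33.3%) and of 11.6% of tested genes, and the sterol element (ATCAC, any base, CCAC) in none of the 12 and in 0.203% of tested genes.

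**Figure D3:**
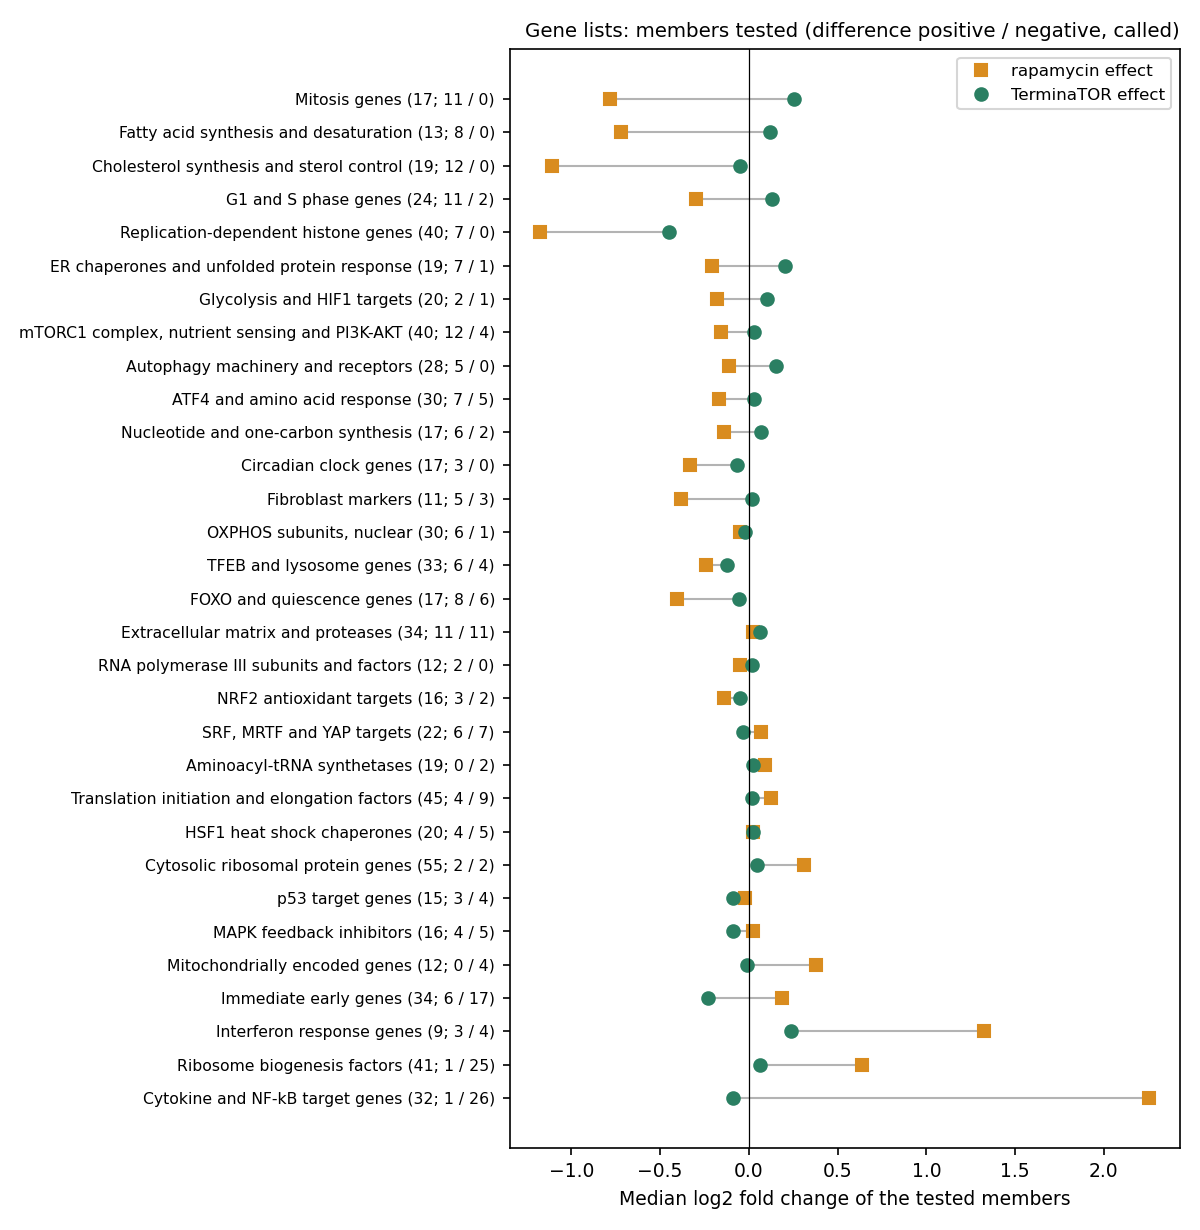
Median log2 fold change of the tested members of each gene list with at least 9 of them (x axis), for rapamycin (squares) and TerminaTOR (circles); labels give the number tested and, after it, the members with a called positive and negative difference. Circles lie between -0.45 and 0.26, while squares reach 2.26 for cytokine genes and -1.18 for histone genes.

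Cell cycle genes also had positive differences. Of 17 mitosis genes tested, 11 were called positive and none negative (median 1.04), beside 12.4% and 11.6% of all genes. Rapamycin lowered 11 (16.1% of all genes), and TerminaTOR raised 4 and lowered none (2.35% and 2.57% of all genes). *Bub1b*, a spindle checkpoint kinase (chr2:118598211-118641591), was at 76.01, 69.3 and 74.4 CPM with PDGF, 25.6, 20.6 and 13.1 with rapamycin, 81.1, 84.7 and 89.3 in the cycloheximide controls and 109, 100.1 and 102 in TerminaTOR cells. The rapamycin libraries were the lowest, and the TerminaTOR libraries were all above their controls, although that effect, 0.29 ± 0.11, was not called. The difference was 2.19 ± 0.18 (edgeR adjusted p = 7.69e-17). In *Cenpe* and *Kif11*, motor proteins of the spindle, both effects were called and opposed: *Cenpe* had 0.26 with TerminaTOR and -0.79 with rapamycin, and *Kif11* 0.24 and -0.70. The anaphase activator *Cdc20* (1.81 ± 0.18), the mitotic kinase *Plk1* (1.41 ± 0.27) and the proliferation marker *Mki67* (1.01 ± 0.09) fell with rapamycin and were not called with TerminaTOR.

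Of 24 genes of G1 and S phase, 11 had a called positive and 2 a called negative difference (median 0.72), beside 12.4% and 11.6% of all genes. Rapamycin lowered 10 and raised 2 (16.1% and 16.3% of all genes). TerminaTOR changed none at the threshold, beside 4.92% of all genes. The replicative helicase subunit gene *Mcm4* was at 113, 115 and 114 CPM with PDGF, 55.1, 67.1 and 41.1 with rapamycin, 130.3, 162 and 142 in the cycloheximide controls and 172, 166 and 183 in TerminaTOR cells, lowest with rapamycin and highest in TerminaTOR cells. Its difference was 1.34 ± 0.15, that of *Mcm2* 1.09 ± 0.12, that of cyclin E1, *Ccne1*, 2.09 ± 0.49, and that of *E2f2*, a transcription factor of S phase genes, 2.18 ± 0.54. Cyclin D1, *Ccnd1*, which growth factors induce in G1, had 0.69 ± 0.17 (edgeR adjusted p = 0.00116). The negative calls were the cell cycle inhibitor *Cdkn1a* (-2.35 ± 0.62) and the G1 kinase *Cdk6* (-1.06 ± 0.12), which both rose with rapamycin.

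Histone genes that are expressed with DNA replication were called lower in part with each inhibitor. Of 40 tested, rapamycin lowered 12 and TerminaTOR 8, with 5 lowered by both, and neither raised any. Over all genes rapamycin lowered 16.1% and TerminaTOR 2.57%, and 88 of 10603 were lowered by both. The difference was called positive for 7 (beside 12.4% of all genes, a share near it), negative for none and not called for 33. The median difference was 0.72, or 0.37 with the 8 members that had no read in a group set to a bound of 3 reads. *Hist1h1c*, a linker histone (chr13:23738808-23740367), was at 89.5, 107 and 100.5 CPM with PDGF, 10.6, 13.8 and 14.96 with rapamycin, 933, 988 and 909 in the cycloheximide controls and 738, 744 and 633 in TerminaTOR cells. Each treated group lay below its control, and the cycloheximide controls were far above the PDGF libraries. The effects were -0.42 ± 0.07 and -2.91 ± 0.11, with a difference of 2.49 ± 0.13 (edgeR adjusted p = 2.72e-25). *Hist1h3d* fell by 0.70 with TerminaTOR and by 2.61 with rapamycin on the log2 scale, and its difference of 1.92 was 3.60 without replicate 3 of the rapamycin group. Histone genes are near-identical copies, so their reads may be split between them, and most of their RNA lacks the poly(A) tail used for capture.

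Ribosome biogenesis factors, the nucleolar proteins that make ribosomal RNA and assemble ribosomes, had negative differences. Of 41 tested, 25 were called negative and 1 positive (median -0.54), beside 11.6% and 12.4% of all genes. Rapamycin raised 30 and lowered none, and TerminaTOR raised 5 and lowered none, beside 16.3% and 2.35% of all genes raised. *Heatr1*, a factor of ribosomal RNA transcription (chr13:12395027-12440289), was at 89.5, 95.4 and 85.96 CPM with PDGF, 213, 204 and 210 with rapamycin, 36.2, 41.3 and 34.6 in the cycloheximide controls and 35.8, 37.2 and 36.9 in TerminaTOR cells. The rapamycin libraries lay above all others and the TerminaTOR libraries within the range of their controls. Its TerminaTOR effect was -0.03, with an interval of -0.25 to 0.20, and its difference -1.24 ± 0.15 (edgeR adjusted p = 2.39e-10). The RNA polymerase I subunit gene *Polr1b* (-1.40 ± 0.19), *Noc3l* (-1.19 ± 0.10), *Rrp12* (-1.08 ± 0.11) and the nucleolar chaperone *Npm1* (-0.58 ± 0.15) had the same pattern. The positive call was *Wdr75*, which rose with TerminaTOR from 5 to 30 reads over the group (2.44 ± 0.75, edgeR adjusted p = 0.00988), a call that was lost on its most-read transcript alone (1.505, adjusted p = 0.261) and without replicate 3 of the cycloheximide controls (adjusted p = 0.0511).

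Other lists of the translation machinery are to be read beside the 12.4% positive and 11.6% negative calls among all genes. Of 55 cytosolic ribosomal protein genes, whose mRNAs mTORC1 is known to control at translation, 2 differences were positive and 2 negative (median -0.15). TerminaTOR changed none of them at the threshold, beside 4.92% of all genes. *Rplp1*, a protein of the ribosomal stalk, was at 5427 ± 336 CPM (SD, n = 3) with PDGF, 4013 ± 229 with rapamycin, 4288 ± 499 in the cycloheximide controls and 4430.5 ± 163 in TerminaTOR cells, a difference of 0.48 ± 0.11. Of 45 translation factors, 4 were positive and 9 negative. Among these *Eif4ebp1*, the translation inhibitor that mTORC1 phosphorylates, had -0.89 ± 0.28, while its relative *Eif4ebp2* rose with TerminaTOR (0.27) and fell with rapamycin (-0.27), for a difference of 0.54 ± 0.08. *Eef2k*, the kinase that slows elongation, had 1.10 ± 0.29. Of 19 aminoacyl-tRNA synthetase genes, 2 were negative and none positive, and of 12 RNA polymerase III genes, 2 were positive, *Polr3k* (1.09 ± 0.24) and *Gtf3c3* (0.64 ± 0.15), and none negative. With library-size scaling the small median differences changed sign, from -0.15 to 0.006 for ribosomal protein genes, from -0.09 to 0.07 for translation factors and from -0.09 to 0.07 for the synthetases, and the negative calls were 17 of the 41 ribosome biogenesis factors, 5 translation factors and none of the ribosomal protein genes. Here and in the lists that follow, counts of 3 or fewer changed by 1 or 2 members when single libraries were left out.

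Metabolic genes under mTORC1 gave mixed differences. Some of the shares called are close to the 12.4% positive and 11.6% negative calls among all genes. Of 17 genes of nucleotide and one-carbon synthesis, 6 were positive and 2 negative. *Ctps*, the enzyme that makes CTP, went in opposite directions, at 237, 253 and 254 CPM with PDGF, 367, 370 and 356 with rapamycin, 339, 308 and 304 in the cycloheximide controls and 257, 246 and 232 in TerminaTOR cells. It was higher in all rapamycin libraries and lower in all TerminaTOR libraries than in their controls (0.56 and -0.37), and its difference was -0.93 ± 0.09 (edgeR adjusted p = 6.93e-13). Of 30 genes of the transcription factor ATF4 and the amino acid response, 7 were positive and 5 negative. The cystine transporter gene *Slc7a11* rose with rapamycin (0.83) and had a TerminaTOR effect of -0.08, for -0.91 ± 0.15. The hormone gene *Fgf21* fell with rapamycin (-1.91) and had a TerminaTOR effect of 0.53 that was not called, for a difference of 2.44 ± 0.54. *Sesn2*, a leucine sensor that restrains mTORC1, moved oppositely in the 2 effects, 0.21 and -0.24, with a difference of 0.45 ± 0.08. Neither *Asns* nor *Mthfd2* was called (edgeR adjusted p = 0.438 and 0.595), and that of *Asns*, -1.46, was -3.68 on its most-read transcript and -0.68 without replicate 2 of the cycloheximide controls. The C/EBP-ATF motif TGATGNAA stood in the promoters of 7 of 26 members with an entry (26.9%) and of 2.73% of tested genes. The list was made around ATF4, so this share says nothing about the differences. Of 20 glycolysis and HIF1 genes, 2 were positive and 1 negative, the hexokinase gene *Hk2* (-0.89 ± 0.13).

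Genes of the mTORC1 pathway itself were also measured. Of 40 genes for the complex, its nutrient sensors and the PI3K-AKT pathway, 12 had a called positive and 4 a called negative difference (median 0.24). Among all genes 12.4% were called positive and 11.6% negative. With library-size scaling the 40 genes gave 17 positive and 1 negative call. The kinase gene *Mtor* was at 113, 105 and 105 CPM with PDGF, 102, 89.5 and 107 with rapamycin, 171, 174 and 165 in the cycloheximide controls and 179, 169 and 181 in TerminaTOR cells. The groups of each pair overlapped, and its difference of 0.16 ± 0.12 was not called (edgeR adjusted p = 0.361), but with library-size scaling it was 0.32 and called (edgeR adjusted p = 0.0305). *Rptor*, the scaffold of the complex, and *Fkbp1a*, which encodes FKBP12, were not called either (edgeR adjusted p = 0.949 and 0.474). *Castor2*, an arginine sensor gene of the CASTOR family, was at 28.4, 37.2 and 30.2 CPM with PDGF, 3.62, 9.54 and 11.2 with rapamycin, 38.7, 47.1 and 34.6 in the cycloheximide controls and 46.7, 47.6 and 46.1 in TerminaTOR cells, lowest with rapamycin, with a difference of 2.19 ± 0.26. The stress-induced mTORC1 inhibitor *Ddit4* (0.86 ± 0.20) and the insulin receptor substrate *Irs1* (0.93 ± 0.18) were positive through a fall with rapamycin. *Irs2* rose with TerminaTOR (0.26) and fell with rapamycin (-0.39), with a difference of 0.65 ± 0.08.

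Lysosome and autophagy genes depend in part on TFEB and TFE3, transcription factors that mTORC1 keeps out of the nucleus. Of 33 tested in the lysosome list, 6 differences were positive and 4 negative, shares near the 12.4% and 11.6% of all genes. Rapamycin lowered 10 and raised 4 (16.1% and 16.3% of all genes), and TerminaTOR lowered 6 and raised 1 (2.57% and 2.35% of all genes). *Tfe3* itself rose with rapamycin (0.45) and fell with TerminaTOR (-0.58), at 36.4, 35.05 and 33.4 CPM in the cycloheximide controls and 23.7, 25.6 and 20.1 CPM in TerminaTOR cells, for a difference of -1.03 ± 0.22 (edgeR adjusted p = 0.000218). *Mitf*, its relative, had -0.87 ± 0.16. The sialidase gene *Neu1* had 1.85 ± 0.29 and the proton pump subunit gene *Atp6v1b2* 0.73 ± 0.09, both with a fall under rapamycin. *Neu1* fell by 1.28 with rapamycin and lay higher in all TerminaTOR libraries than in their controls. That TerminaTOR effect, 0.57, was not called (edgeR adjusted p = 0.0680). *Mcoln1*, a lysosomal calcium channel, fell with both (-0.75 and -1.02), and its difference was not called (0.28, interval -0.24 to 0.80).

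Of 28 autophagy genes, 5 had a called positive and none a negative difference, beside 12.4% positive calls among all genes, with 3 positive without replicate 2 of the PDGF group or without replicate 2 of the TerminaTOR group, and 10 with library-size scaling. *Atg101*, a subunit of the kinase complex that starts autophagy, was at 38.01, 42.4 and 47.4 CPM with PDGF, 32.3, 26.5 and 28.03 with rapamycin, 59.2, 62.02 and 55.9 in the cycloheximide controls and 90.7, 86.5 and 95.2 in TerminaTOR cells. TerminaTOR libraries were all above and rapamycin libraries all below their controls, with effects of 0.62 and -0.56 and a difference of 1.18 ± 0.18 (edgeR adjusted p = 2.08e-07). *Ulk1*, the kinase of that complex, moved in the same way (0.44 and -0.33, difference 0.77 ± 0.12). *Wipi1*, which binds the growing membrane, had 0.75 ± 0.17.

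Immediate early genes are induced by growth factors without new protein and are stabilised by cycloheximide. Of 34 tested, 17 had a called negative and 6 a called positive difference (median -0.44), beside 11.6% and 12.4% of all genes. Rapamycin raised 14 and lowered 7 (16.3% and 16.1% of all genes). TerminaTOR raised 1 and lowered 8 (2.35% and 2.57% of all genes). *Phlda1* was at 136, 157 and 155 CPM with PDGF, 240.1, 241 and 252 with rapamycin, 383, 325 and 311 in the cycloheximide controls and 213, 213 and 188 in TerminaTOR cells. Rapamycin libraries were above and TerminaTOR libraries below their controls (0.71 and -0.73), and the difference was -1.44 ± 0.11 (edgeR adjusted p = 2.76e-18). *Tiparp*, a mono-ADP-ribosyltransferase, was at 221, 267 and 233 CPM with PDGF, 476, 496 and 536 with rapamycin, 1474, 1424 and 1374 in the cycloheximide controls and 984, 945 and 856 in TerminaTOR cells. It had the same opposed pattern (1.06 and -0.62) and a difference of -1.68 ± 0.10. The stress gene *Gadd45b* (-2.05 ± 0.16), *Ier3* (-1.82 ± 0.21), the RNA-binding protein gene *Zfp36* (-2.63 ± 0.50) and the AP-1 subunit *Fosl1* (-1.76 ± 0.49) were negative, with a rise under rapamycin. *Ier3* rose by 1.24 with rapamycin and lay lower in all TerminaTOR libraries than in their controls. That TerminaTOR effect, -0.58, was just not called (edgeR adjusted p = 0.0505).

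*Fos*, the AP-1 subunit that marks the early response, was at 146, 134 and 138 CPM with PDGF, 79.1, 102 and 108 with rapamycin, 5382, 4694 and 4501 in the cycloheximide controls and 4284, 4013 and 3695 in TerminaTOR cells. The cycloheximide controls were far above the PDGF libraries, and each treated group lay below its control. The rapamycin effect was -0.53 and the TerminaTOR effect -0.28, the latter not called, and the difference of 0.25 ± 0.13 was not called (edgeR adjusted p = 0.205). It was called with library-size scaling (0.41, edgeR adjusted p = 0.0186), with no filter on low counts (0.31, edgeR adjusted p = 0.0163) and without replicate 1 of the cycloheximide controls (0.32, edgeR adjusted p = 0.0327). *Jund*, another AP-1 subunit, and the transcription factor *Klf4* fell with both, *Jund* by 0.23 with TerminaTOR and 1.08 with rapamycin and *Klf4* by 0.41 and 0.86 on the log2 scale, and the falls differed (0.85 ± 0.11 and 0.44 ± 0.08). *Fosb* had 1.04 ± 0.23 through a fall with rapamycin. *Myc* was low (78 reads over the PDGF libraries), and its difference of -1.34 ± 0.58 was not called (edgeR adjusted p = 0.0860). It was called on the 12 libraries alone (-1.36, edgeR adjusted p = 0.0498), without replicate 1 of the rapamycin group (-1.60, edgeR adjusted p = 0.0418) and without replicate 3 of the TerminaTOR group (-1.79, edgeR adjusted p = 0.0322).

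Inhibitors of the MAPK pathway that damp growth factor signals went both ways, with 4 of 16 positive and 5 negative, beside 12.4% and 11.6% of all genes. *Spred1* was at 630.1, 571 and 598 CPM with PDGF, 1538, 1779.7 and 1767 with rapamycin, 276, 265 and 272 in the cycloheximide controls and 262, 277 and 264 in TerminaTOR cells. It was high with rapamycin, and the 2 cycloheximide groups overlapped (-1.52 ± 0.09, edgeR adjusted p = 2.38e-24). *Spry2* rose with rapamycin (0.80) and fell with TerminaTOR (-0.42), a difference of -1.21 ± 0.08, while *Spry4* fell with rapamycin and had 0.74 ± 0.11. Of 22 targets of SRF, MRTF and YAP, which serve the cytoskeleton, 6 were positive and 7 negative, beside the same shares of all genes. *Acta2*, smooth muscle actin, was at 105, 130.3 and 123 CPM with PDGF, 53.5, 56.9 and 56.1 with rapamycin, 142, 157 and 148 in the cycloheximide controls and 177, 184 and 182 in TerminaTOR cells, and its difference was 1.39 ± 0.12. The tropomyosin gene *Tpm1* had -1.76 ± 0.21. *Edn1*, endothelin, had 3 reads with rapamycin against 60 with PDGF, and its difference of 4.21 ± 0.68 was 4.996 without replicate 3 of the rapamycin group.

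Extracellular matrix genes were split, with 11 of 34 positive and 11 negative, beside 12.4% and 11.6% of all genes. Called effects in opposite directions were found in 7 of the 34, beside 179 of all 10603 genes. On the positive side, *Col1a1*, the main chain of fibrillar collagen (chr11:94936224-94953042), was at 3546, 3728 and 3776 CPM with PDGF, 2076, 2179 and 2252 with rapamycin, 4046, 4444 and 4241 in the cycloheximide controls and 4849, 5323 and 5286 in TerminaTOR cells. It was lower with rapamycin and higher with TerminaTOR in all libraries than in their controls, -0.76 and 0.28 on the log2 scale, with a difference of 1.04 ± 0.07 (edgeR adjusted p = 7.24e-20). *Col1a2* (0.19 and -0.65), *Col5a2* (0.47 and -0.34) and *Col4a2* (0.24 and -0.50) moved in the same way, TerminaTOR effect first. So did *Plau*, the urokinase gene (0.74 and -0.39). On the negative side were the proteoglycan genes *Dcn* (-2.57 ± 0.40) and *Lum* (-2.44 ± 0.29) and tenascin C, *Tnc* (-2.26 ± 0.23). *Pcolce*, an enhancer of collagen processing, had the largest positive difference among genes with at least 10 reads in each of the 4 groups, 4.12 ± 0.58, at low levels: 5.78, 8.27 and 8.29 CPM with PDGF, 0.836, 1.54 and 0.475 with rapamycin, 1.24, 2.77 and 1.92 in the cycloheximide controls and 4.37, 4.52 and 3.66 in TerminaTOR cells. On its most-read transcript alone that difference was 2.77.

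The summed level of the fibroblast markers, which include several of these matrix genes, ran from 8345 to 8700 CPM with PDGF, 5501 to 6012 with rapamycin, 8533 to 8909 in the cycloheximide controls and 9741 to 10290 in TerminaTOR cells. Of the 11 markers tested, 5 differences were positive and 3 negative, beside 12.4% and 11.6% of all genes, and 5 had called effects in opposite directions. *Thy1*, a surface protein of fibroblasts, rose with TerminaTOR (0.50) and fell with rapamycin (-0.74).

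Over all genes, 95 rose with TerminaTOR and fell with rapamycin, and 84 did the reverse. Among those with the largest smaller effect in the first pattern, *Exo1*, an exonuclease of DNA repair, was at 6.61, 12.4 and 10.8 CPM with PDGF, 3.62, 4.92 and 3.09 with rapamycin, 8.48, 6.81 and 9.03 in the cycloheximide controls and 20.9, 18.1 and 21.4 in TerminaTOR cells. TerminaTOR libraries were above and rapamycin libraries below their controls (1.30 and -1.38), and the difference was 2.68 ± 0.39 (edgeR adjusted p = 5.02e-08). *Ms4a4d*, a membrane protein gene, was at 17.4, 21.7 and 24.9 CPM with PDGF, 6.41, 8.61 and 7.84 with rapamycin, 24.4, 24.2 and 19.98 in the cycloheximide controls and 44.96, 46.98 and 34.5 in TerminaTOR cells, again with no overlap in either pair, and had a difference of 2.39 ± 0.27. *Gli2*, a transcription factor of hedgehog signalling (1.96 ± 0.37), *Dedd2* (1.88 ± 0.28), *Pkdcc* (1.96 ± 0.40) and *Iqcn* (2.51 ± 0.52) were the others. *Iqcn* was at 2.65 ± 1.07 CPM with PDGF and 75.02 ± 4.39 CPM in the cycloheximide controls (SD, n = 3), so its 2 effects start from very different levels.

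In the reverse pattern, *Lum*, the matrix proteoglycan lumican, was at 14.04, 14.5 and 13.3 CPM with PDGF, 30.6, 34.1 and 40.6 with rapamycin, 14.5, 18.2 and 15.6 in the cycloheximide controls and 7.03, 7.86 and 7.63 in TerminaTOR cells. Neither pair overlapped, and the effects were -1.10 with TerminaTOR and 1.34 with rapamycin. *Plxna4*, a semaphorin receptor, was at 15.4, 11.1 and 14.3 CPM with PDGF, 49.9, 45.2 and 55.3 with rapamycin, 14.9, 9.33 and 16.7 in the cycloheximide controls and 6.56, 5.11 and 10.1 in TerminaTOR cells. The rapamycin libraries were the highest, and 1 TerminaTOR library lay above the lowest control, with a difference of -2.87 ± 0.31. *Runx2*, a transcription factor of bone formation (-2.06 ± 0.42), *Tnfrsf11b*, the decoy receptor osteoprotegerin (-1.86 ± 0.26), *Kctd4* (-1.75 ± 0.22) and the collagen receptor subunit *Itga1* (-3.25 ± 0.79) followed. *Itga1* had 13 reads in TerminaTOR cells, and its difference was -4.94 without replicate 1 of that group, -2.65 without its replicate 2 and -3.93 with limma-voom. The kinase *Plk2*, the antioxidant enzyme *Srxn1*, the repressor *Bcl6* and the antiproliferative *Btg1* were among the opposed genes with high counts, with TerminaTOR and rapamycin effects of -0.41 and 0.42, -0.41 and 0.38, -0.24 and 0.51, and -0.28 and 0.47.

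**Figure D4:**
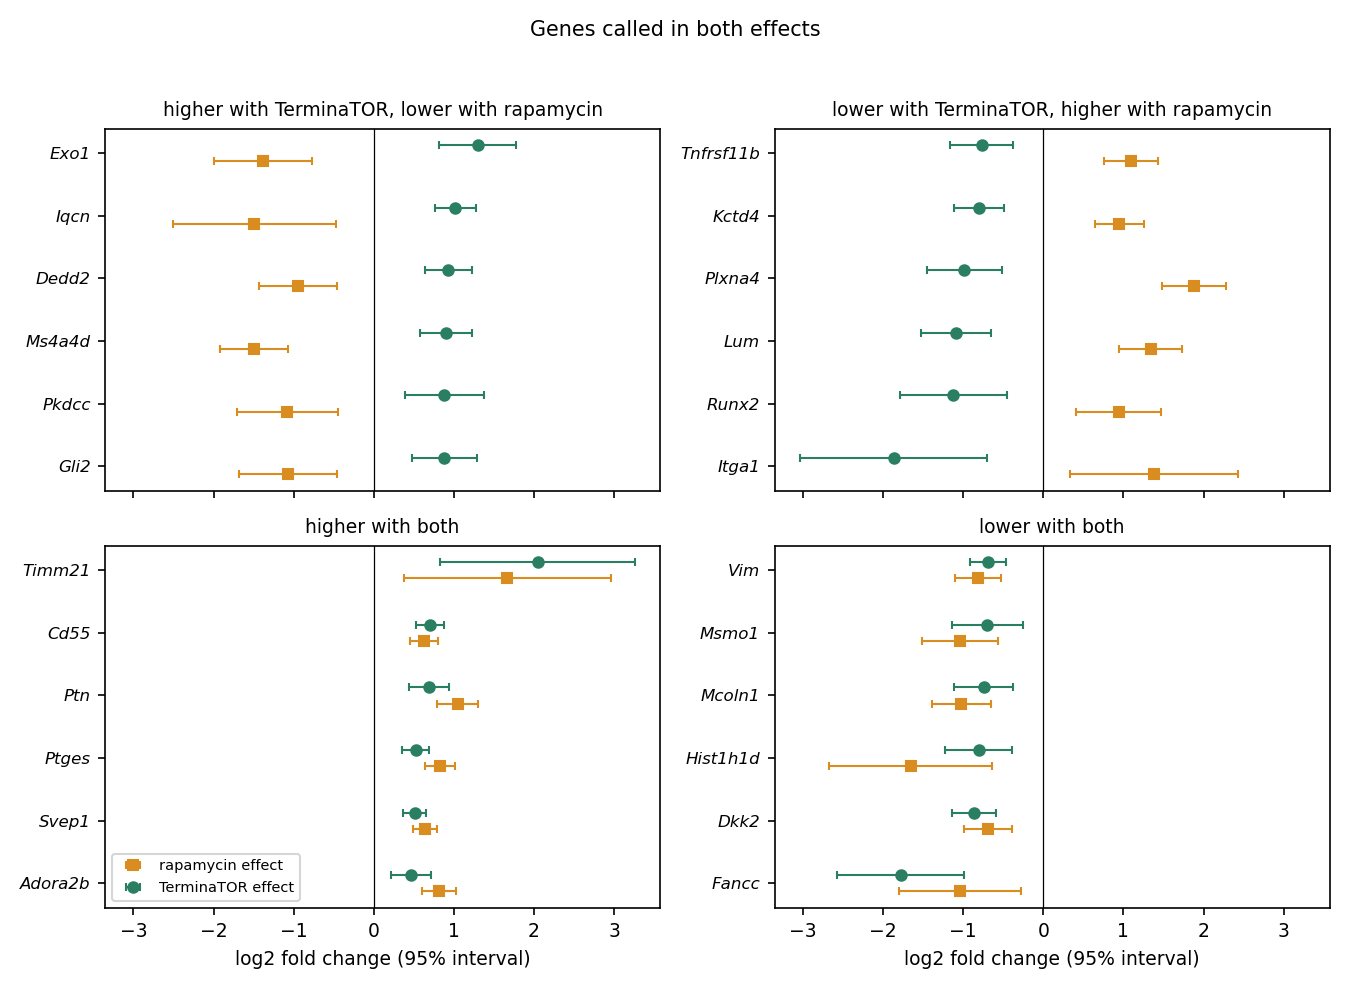
TerminaTOR (circles) and rapamycin (squares) effects, log2 fold change with 95% interval (x axis), for the 24 genes with the largest smaller effect among genes called in both, 6 in each pattern. In the upper panels the intervals lie on opposite sides of 0, and in the lower panels on the same side, with overlapping intervals of the 2 inhibitors in each gene. The lower panels hold only genes whose difference was not called, so this overlap follows largely from their choice.

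Genes moved in the same direction by both inhibitors were fewer. Of the 148 called in the same direction, 60 were higher with both and 88 lower with both, and for 87 of them (38 and 49) the difference was not called, which does not show that the effects were equal. *Cd55*, which protects cells from complement, was at 122, 124 and 133 CPM with PDGF, 174, 199.6 and 211 with rapamycin, 127, 109 and 121 in the cycloheximide controls and 198, 211 and 169.9 in TerminaTOR cells. Both treated groups lay wholly above their controls, with effects of 0.70 and 0.63 and a difference of 0.08 (interval -0.17 to 0.32). *Svep1*, a matrix protein, had effects of 0.51 and 0.64 (difference interval -0.33 to 0.08), and *Adora2b*, an adenosine receptor, 0.46 and 0.81 (difference interval -0.68 to -0.02). The growth factor gene *Ptn* (0.69 and 1.05) and the prostaglandin E synthase *Ptges* (0.52 and 0.83) were also higher with both, and their differences were called in 2 of the fits that leave out a library each. Their difference intervals were -0.712 to -0.0002 and -0.56 to -0.06. Like that of *Adora2b* these intervals, not adjusted for the number of genes, leave out 0, with the larger rise under rapamycin. *Timm21* rose from a group with 11 reads.

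Among genes lower with both, *Vim*, the intermediate filament vimentin, was at 56.5, 45.7 and 44.7 CPM with PDGF, 27.6, 27.4 and 28.3 with rapamycin, 154, 109.9 and 114 in the cycloheximide controls and 88.7, 72.7 and 72.3 in TerminaTOR cells. Each treated group lay below its control, with effects of -0.69 and -0.81 and a difference of 0.12 (interval -0.24 to 0.49). *Dkk2*, a secreted Wnt antagonist, was at 38.8, 41.1 and 42.3 CPM with PDGF, 26.5, 19.99 and 28.7 with rapamycin, 63.7, 56.98 and 60.5 in the cycloheximide controls and 31.5, 27.5 and 42.4 in TerminaTOR cells, with effects of -0.86 and -0.69 and a difference interval of -0.58 to 0.24. *Fancc*, a DNA repair protein, and *Hist1h1d* were lower as well, at low counts (28 reads with TerminaTOR and 12 reads with rapamycin). For *Hist1h1d* the difference of 0.85 was not called, but it was 1.90 and called without replicate 2 of the rapamycin group (edgeR adjusted p = 0.0380), 0.185 without its replicate 3 and 1.63 with limma-voom. For *Fancc* the difference was -0.74, but -2.41 on the most-read transcript and -1.47 without replicate 2 of the TerminaTOR group.

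The 111 genes called in the difference and in the TerminaTOR effect alone had low counts among their largest. *Mafa*, a transcription factor, was at 7.44, 7.75 and 7.66 CPM with PDGF, 6.96, 5.84 and 4.51 with rapamycin, 11.996, 7.06 and 7.49 in the cycloheximide controls and 18.6, 20.8 and 15.3 in TerminaTOR cells. Its TerminaTOR libraries lay above all others, the rapamycin effect was -0.41 and not called, and the difference was 1.46 ± 0.38 (edgeR adjusted p = 0.00237). *Pspc1*, a nuclear paraspeckle protein (1.76 ± 0.45), and *Dhrs11*, a dehydrogenase (1.35 ± 0.32), were also higher in TerminaTOR cells. *Gap43*, a growth-associated protein, had 68 reads in the cycloheximide controls and 12 in TerminaTOR cells (-2.64 ± 0.72, edgeR adjusted p = 0.00329). *Dnajb9*, an ER chaperone cofactor, rose with TerminaTOR from 199, 191 and 213 to 312, 307 and 279 CPM and had a rapamycin effect of -0.16 that was not called, for 0.74 ± 0.11. It belongs to the ER chaperones and unfolded protein response, of which 7 of 19 were positive and 1 negative, with TerminaTOR raising 4 and lowering 1. Among all genes 12.4% were positive and 11.6% negative, and TerminaTOR raised 2.35% and lowered 2.57%.

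Several large differences lay outside the lists or in single members of them. *Dlk1*, a Notch-related inhibitor of differentiation, was at 36.9 ± 3.97 CPM with PDGF and 8.53 ± 4.23 with rapamycin (SD, n = 3), but near the floor in both cycloheximide groups, and had a difference of 2.81 ± 0.57. *Aldh1a7* (3.12 ± 0.57), the junction protein plakoglobin, *Jup* (3.06 ± 0.60), the chaperone clusterin, *Clu* (2.81 ± 0.70), and lipoprotein lipase, *Lpl* (2.94 ± 0.45) were positive at low levels. The calcineurin inhibitor *Rcan1* (-4.31 ± 0.79), ceruloplasmin, *Cp* (-3.55 ± 0.54), the integrin *Itga2* (-4.08 ± 0.73) and *Prelid3a* (-3.27 ± 0.53) were negative. On alternative settings *Aldh1a7* reached 3.87 without replicate 2 and *Jup* 3.70 without replicate 1 of the rapamycin group. *Itga2* was at -3.41 without replicate 3 of the cycloheximide controls and -4.83 without replicate 2 of the TerminaTOR group, *Cp* -4.21 without replicate 1 of the TerminaTOR group, and *Prelid3a* -2.04 on its most-read transcript. *Jph1* and *Dtl*, also among the largest positive differences with at least 10 reads in each group, lost their call without replicates 3 and 1 of the TerminaTOR group (edgeR adjusted p = 0.0659 and 0.0961).

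The remaining lists had calls on both sides or few, to be read beside the 12.4% positive and 11.6% negative calls among all genes, to which several of their shares are close. FOXO and quiescence genes had 8 of 17 positive and 6 negative, with 5 positive without replicate 2 of the PDGF group and 3 negative without replicate 3 of the cycloheximide controls, among the positive the antiproliferative gene *Tob1* (1.85 ± 0.11) and the cyclin-dependent kinase inhibitor *Cdkn1b* (1.22 ± 0.16). *Tob1* was at 110.2, 129 and 115 CPM with PDGF, 33.4, 27.7 and 32.3 with rapamycin, 600, 561 and 569.7 in the cycloheximide controls and 541, 566 and 551 in TerminaTOR cells, with overlap between the cycloheximide groups only. Targets of p53 had 3 of 15 positive and 4 negative, NRF2 targets 3 of 16 and 2, and HSF1 chaperones 4 of 20 and 5, among them *Bag3* (0.60 ± 0.08). Of 17 clock genes 3 were positive, including *Rora* (0.95 ± 0.17), and none negative. Nuclear OXPHOS genes had 6 of 30 positive and 1 negative. Of 12 mitochondrially encoded genes 4 were negative and none positive (median -0.37). *mt-Co1* was at 30710, 32557 and 32166 CPM with PDGF, 37782, 40366 and 43183 with rapamycin, 27114, 25303 and 26487 in the cycloheximide controls and 26105, 26566 and 25829 in TerminaTOR cells, higher in all rapamycin libraries, with a difference of -0.35 ± 0.07 that moves with the mitochondrial share of each library given above; its part in other results was not tested. Of the macrophage markers 4 could be tested, and the 2 calls went opposite ways, *Lyz2* (2.95 ± 0.68) and *Mrc1* (-3.49 ± 1.14, at 5 reads with PDGF). Without replicate 3 of the PDGF group the difference of *Mrc1* was -7.42, and without replicate 2 of the cycloheximide controls it was -1.98 and not called (edgeR adjusted p = 0.372), nor was it called without replicate 1 or 2 of the PDGF group (edgeR adjusted p = 0.0574 and 0.0637). None of the 2 epithelial and endothelial markers tested was called.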

How the data were processed

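RNA was measured in 15 libraries of NIH3T3 cells, 3 in each of 5 groups taken from the sample titles. Each deposited file gives, per the labels, the authors' read counts for 142446 transcripts, whole numbers that were not normalized. Per the labels' protocols RNA was captured by its poly(A) tail, and HISAT2 2.2.1, HTSeq 0.9.1 and R 4.1.0 are named in the submitters' processing notes. Those notes name the human build hg38, while the transcript identifiers are mouse, and strand handling is not given in the sources used. HTSeq's default leaves out reads that several features share, and the mode used is not named, so a gene's sum may rest on reads specific to single transcripts and may move with its isoforms, and overlapping or near-identical genes may be miscounted.

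Transcripts were matched to GENCODE M21 (build GRCm38): 141536 matched, and the other 910 held 0.0309% of counts. Counts were summed to 55266 genes, and after edgeR's filter on low counts 10603 were tested. One model of 5 group means was fitted to all 15 libraries (10 residual degrees of freedom) with edgeR 4.0.16 in R 4.3.3 (robust quasi-likelihood F test, two-sided, TMM scaling), with Benjamini-Hochberg adjustment over all genes tested and calls at an adjusted p under 0.05. SEs are the log2 change divided by the root of the F statistic, and intervals are 95%. The scripts were tested on simulated data with known differences put into the TerminaTOR group. Of differences of 1 on the log2 scale 44 of 101 (43.6%) were recovered, and of those of 2, 66 of 90 (73.3%). There were 6 false calls over 10079 genes. A difference that was not called may therefore still be present. Depth ran from 3466202 to 6777780 counts per library, intervals cover the spread among these libraries, and the floor of 3 reads over a group covers counting error only. No 2 libraries of a group were identical, and in each group they differed by more than sampling noise.

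Replicate numbers were not taken as pairs: after removing group means, same-numbered libraries correlated at -0.04 to 0.076, with none of 30 pairs over 0.1. The comparison, the 34 gene lists, the marker lists, the 5 promoter motifs and the tests were chosen with earlier results of these data known. Named genes were the 12 largest called differences in each direction whose mean log2 CPM was 1 or more, with at least 10 reads in each of the 4 groups and a gene symbol that is not a clone or model name. To these were added the 6 genes in each pattern of opposed or shared effects with the largest smaller effect. Those with shared effects were taken only where the difference was not called. Up to 3 called members of each list and 20 genes fixed by name were also added. A further 49 genes were named as examples after their values were seen, and some genes that these rules name are not reported here, which leaves 10 of the largest positive and 12 of the largest negative differences. Alternatives were RLE and library-size scaling, no filter on low counts, DESeq2 1.42.0, limma-voom (limma 3.58.1), a fit on the 12 libraries alone, a replicate block, the most-read transcript of each gene, and leaving out each of the 12 libraries in turn. Promoters are RefSeq's for GRCm38.p6, matched by symbol.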

Additional observations from a re-analysis of the deposited data

How the results depend on the processing

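Called differences numbered 2171 to 2722 over the other scalings, tools, filters and count definitions, beside 2548 as reported. They were 2533 with RLE scaling, 2722 with library-size scaling, 2171 with no filter, 2444 with DESeq2, 2514 with limma-voom, 2661 on the 12 libraries alone and 2478 on the most-read transcript. With no filter the genes lower with TerminaTOR were 169 and those called in the same direction 97. Leaving out 1 library at a time gave 2237 to 2480 called differences and 2864 to 3426 genes changed by rapamycin. It gave 308 to 572 changed by TerminaTOR, with 141 to 277 higher and 154 to 295 lower, 106 to 182 called in opposite directions and 91 to 161 called in the same direction. Adding the replicate number as a block gave 2587 called differences, 563 TerminaTOR calls and 3444 rapamycin calls, although the numbers showed no pairing, and none of these counts moved by over 1.5 times. Among the 186 named genes, 3597 of the recomputed differences kept direction and side of the threshold, 96 lost the call, 12 gained it and 10 changed sign. The sign changes were in genes whose difference was not called: *Svep1* (0.037) and *Mthfd2* (0.048) with library-size scaling, and *Timm21* (-0.13) with limma-voom. With a library left out, *Rptor* ran from -0.21 to 0.46, *Timm21* from -0.012 to 0.89 and *Mcoln1* from -0.015 to 0.54. Of the list counts 75 moved by over 1.5 times and 1285 did not. Apart from the smaller number of libraries in the leave-out fits and the larger number of genes with no filter, the cause was not tested. Depth limits the low genes: the difference of *Csf3*, with 8 reads over the PDGF group, had an SE of 0.78, against 0.12 for *Ptx3*.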
